A study of Mus musculus with 3 samples.

Results

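The Schwann cell myelin genes described here are *Mbp*, *Pmp22*, *Prx*, *Mag* and *Sox10*, chosen by name. All 5 are listed among 26970 genes whose RNA was sequenced from mandibular condyles of mice aged 4 months. There were 3 libraries, 1 per genotype: WT (+/+), Dspp+/- (1 deleted allele of *Dspp*) and Dspp-/- (both alleles deleted), all on the C57BL/6 background. The deletion, where present, is global and not limited to a cell type. Tissue of 3 animals was pooled for WT and for Dspp+/-, and the number of animals behind Dspp-/- is not given in the sources used here. The condyle, the end of the jaw bone in the temporomandibular joint, was dissected with cartilage and subchondral bone joined. With 1 library per genotype there is no replicate check, no p-value can be given, and each difference below is a difference between single libraries.

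Schwann cells wrap the axons of peripheral nerves, and the myelinating ones build a sheath of tightly stacked membrane. *Mbp* (myelin basic protein) and *Pmp22* (a membrane protein with several spans) belong to the compact sheath, *Mag* (myelin-associated glycoprotein) lies in the membrane that faces the axon, and *Prx* (periaxin) links the outer membrane to the basal lamina. *Sox10* is the transcription factor that Schwann cells need at every stage and that acts with *Egr2* on myelin genes. Nerves enter the jaw joint through its capsule, bone and neighbouring muscle, so a condyle holds little Schwann cell RNA beside that of bone, cartilage, marrow and muscle. The genes are not restricted to Schwann cells: *Pmp22* is also used by fibroblasts and other connective tissue cells, *Mbp* has a longer form (golli) in blood-forming and immune cells, *Prx* is used by some endothelial cells, and *Sox10* by melanocytes and glands.

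Sequences upstream of the start sites are shown because *Sox10* and *Egr2* are known to act on myelin genes, and because the value of a gene sums transcripts from all of its starts. Sequences of 3 of the 5 genes were used here, from RefSeq on GRCm38.p6: *Prx* with 1 start, *Mag* with 3 and *Pmp22* with 4. No sequence of *Mbp* or *Sox10* was searched. Each line gives the 250 bases before a start, 5′ to 3′, with matches to ACAAAG (a SOX core, either strand) in capitals. *Mag* is shown at its most upstream start (chr7:30914923-30915172, minus strand), *Prx* at its only start (chr7:27499074-27499323, plus strand), and *Pmp22* at its first start (chr11:63128732-63128981) and second start (chr11:63131207-63131456), both on the plus strand.
Mag: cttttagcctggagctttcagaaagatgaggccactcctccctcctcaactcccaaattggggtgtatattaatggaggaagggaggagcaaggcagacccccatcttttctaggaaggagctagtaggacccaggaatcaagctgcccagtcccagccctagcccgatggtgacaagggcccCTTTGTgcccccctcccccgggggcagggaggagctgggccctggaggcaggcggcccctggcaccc
Prx: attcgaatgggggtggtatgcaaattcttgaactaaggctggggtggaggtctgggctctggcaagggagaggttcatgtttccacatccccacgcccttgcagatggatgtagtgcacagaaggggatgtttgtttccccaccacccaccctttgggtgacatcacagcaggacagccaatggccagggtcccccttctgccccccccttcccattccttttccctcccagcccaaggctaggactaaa
Pmp22 first start: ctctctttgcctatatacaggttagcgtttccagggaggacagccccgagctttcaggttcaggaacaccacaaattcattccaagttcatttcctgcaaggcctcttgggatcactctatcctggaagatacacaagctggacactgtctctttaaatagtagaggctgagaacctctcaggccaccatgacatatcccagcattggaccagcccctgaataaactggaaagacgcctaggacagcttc
Pmp22 second start: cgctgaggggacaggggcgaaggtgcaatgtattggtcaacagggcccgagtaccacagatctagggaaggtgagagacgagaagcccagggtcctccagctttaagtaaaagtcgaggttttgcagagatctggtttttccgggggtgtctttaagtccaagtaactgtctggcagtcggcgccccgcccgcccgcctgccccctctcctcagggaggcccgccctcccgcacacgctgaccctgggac
The *Mag* window holds 1 ACAAAG match, on the opposite strand from 67 to 62 bases before the start. The overlapping window of the second *Mag* start holds the same match, from 126 to 121 bases before that start. The window of the third *Mag* start and those of *Prx* and *Pmp22* hold 0. Of 32851 windows of the same length before RefSeq starts, 16.5% hold this motif. The shorter core ACAAT (27.7% of all windows) and the EGR core GCGNGGGCG (4.70% of all windows), searched on both strands and sharing no full match with ACAAAG, were not found in any of the 8 windows of the 3 genes. A match is a description of these letters and no evidence of binding. The GC content of the shown windows was 61.2% for *Mag*, 56.4% for *Prx*, and 48.8% and 61.2% for the first and second *Pmp22* start, with a median of 52.4% over all windows.

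Levels are given in FPKM, the number of sequenced fragments per kilobase of exon, scaled to the depth of the library. The fragments behind each value were recovered from the FPKM and the exon length, and total depth was between 20241566 and 23613612 fragments. Intervals given here are at 95% and cover counting error alone, with the variation from mouse to mouse unknown. The libraries differed widely in other respects: mitochondrial genes held 25% to 37.3% of the summed FPKM, and *Xist*, expressed from the inactive X chromosome of female cells, had 2, 12084 and 10563 fragments in the WT, Dspp+/- and Dspp-/- libraries, so that the sex of the pooled animals and genotype cannot be told apart. The genotypes rest on the labels alone, and *Dspp* was not analysed here.

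*Pmp22* (ENSMUSG00000018217, chromosome 11 from 63019808 to 63050373) was the most abundant of the 5 genes, with 45.3 FPKM in the WT library, against 35.3 in Dspp+/- and 43.7 in Dspp-/-, from 2158, 1960 and 2287 fragments. It was lowest in Dspp+/-, and its level in WT was above that of 97.1% of all listed genes. *Mbp* (ENSMUSG00000041607, chromosome 18 from 82493271 to 82603762) had 2.54 FPKM in the WT library, against 3.96 in Dspp+/- and 3.85 in Dspp-/-, from 436, 792 and 726 fragments. It was lowest in WT, and the values of the Dspp+/- and Dspp-/- libraries lay close together. *Prx* (ENSMUSG00000053198, chromosome 7 from 27196813 to 27219639) had 1.67 FPKM in the WT library, against 1.31 in Dspp+/- and 1.44 in Dspp-/-, from 191, 175 and 181 fragments, so it was highest in WT. An opposite-strand gene, Gm15541, covers 5.38% of the *Prx* exons. Its fragments became whole with an exon length of 5661 bases in place of the 5579 of the annotation, the only such length within 20% of it.

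The other members were near the limit of what this depth shows. *Sox10* (ENSMUSG00000033006, chromosome 15 from 79039108 to 79049440) had 0.664 FPKM in the WT library, against 0.791 in Dspp+/- and 0.383 in Dspp-/-, from 41, 57 and 26 fragments. It was lowest in Dspp-/-. *Mag* (ENSMUSG00000036634, chromosome 7 from 30598601 to 30614298) had 0.279 FPKM in the WT library, against 0.135 in Dspp+/- and 0.188 in Dspp-/-, from 23, 13 and 17 fragments. It was the lowest of the 5 genes in each library, and in Dspp+/- its level was above that of 30.6% of all listed genes. Positions are those of the deposited table, whose mouse build is not named and is not GRCm38.

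In FPKM, which is per length, the order of levels was *Pmp22*, *Mbp*, *Prx*, *Sox10* and *Mag* in all 3 libraries. *Pmp22* was 17.8 times the level of *Mbp* in WT, 8.90 times in Dspp+/- and 11.3 times in Dspp-/-. The intervals of neighbours in the order did not overlap, except those of *Sox10* (0.25 to 0.561 FPKM) and *Mag* (0.109 to 0.3 FPKM) in Dspp-/-. There the level of *Sox10* was 2.04 times that of *Mag*. Overlap of separate intervals does not show that levels are alike, and no interval was computed for this ratio. In Dspp+/- the level of *Prx* was 1.65 times that of *Sox10*, and in WT 2.51 times.

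**Figure D1:**
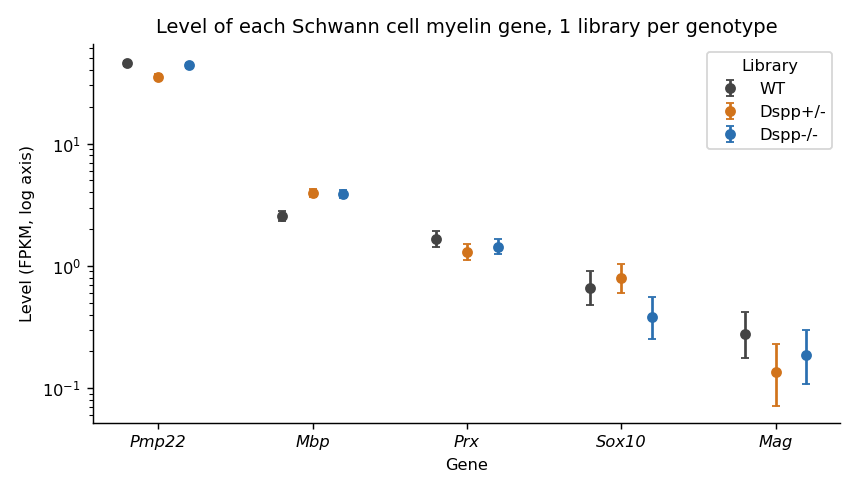
Level in FPKM on a log axis of the 5 genes in each library (colours), with 95% exact Poisson intervals for counting error as bars. *Pmp22* lies between 35.3 and 45.3 FPKM, and *Mag* lies at 0.279 FPKM or less in every library.

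Of the 5 genes, 3 (*Pmp22*, *Mbp* and *Prx*) averaged 1 FPKM or more across libraries and entered the counts of changed genes, which use the ratio of FPKM + 1 on the log2 scale. *Sox10* and *Mag* stayed under that minimum. In Dspp+/- against WT, 0 of the 3 were at least 2-fold higher or lower, where 7.75% of 13026 genes were (20.5% at 1.5-fold, again with 0 members). In Dspp-/- against WT the count was also 0, where 5.42% of genes passed (17.1% at 1.5-fold, with 0 members), and in Dspp+/- against Dspp-/- it was 0, where 1.65% passed (7.71% at 1.5-fold, with 0 members). Adding 1 FPKM shrinks the ratios of genes at a few FPKM, such as *Mbp* and *Prx*. A count of 0 therefore does not mean that no fold of a member reached 1.5. With 1 library per genotype these counts come from no test. Both comparisons with WT share the WT library, so its own deviations enter both. In tissue of this kind, fewer Schwann cells and less RNA per Schwann cell cannot be told apart.

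The fold of *Mbp* in Dspp+/- against WT was 1.56 (1.38 to 1.75), and in Dspp-/- against WT it was 1.51 (1.34 to 1.71). Both intervals lay above 1, and between Dspp+/- and Dspp-/- the fold was 1.03 (0.928 to 1.14). On the log2(FPKM + 1) scale the ratio of *Mbp* was 0.49 in Dspp+/- and 0.45 in Dspp-/-, while the median over all genes tested was 0.058 and 0.007. Without the added 1 FPKM both folds of *Mbp* against WT passed 1.5-fold, which the ratios of FPKM + 1 did not. *Pmp22* had a fold of 0.779 (0.732 to 0.828) in Dspp+/- against WT. In Dspp-/- its fold was 0.964 (0.909 to 1.02), so that library and WT did not differ beyond counting error. Dspp+/- against Dspp-/- gave 0.808 (0.760 to 0.858), below 1. *Prx* had a fold of 0.785 (0.636 to 0.969) in Dspp+/- and 0.862 (0.699 to 1.06) in Dspp-/-, and only the first interval excluded 1.

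For the 2 rarest genes the folds were wide. *Sox10* had a fold of 1.19 (0.784 to 1.83) in Dspp+/- and 0.577 (0.339 to 0.966) in Dspp-/- against WT. Between Dspp+/- and Dspp-/- its fold was 2.07 (1.28 to 3.42), which rests on 57 and 26 fragments. *Mag* had a fold of 0.485 (0.225 to 0.997) in Dspp+/-, from 13 against 23 fragments, whose interval only just excluded 1. In Dspp-/- the fold of *Mag* was 0.672 (0.337 to 1.31), and a difference from WT was not detectable at this depth.

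In all, the counting interval excluded 1 for 4 of the 5 genes in Dspp+/- against WT, with *Mbp* higher and *Pmp22*, *Prx* and *Mag* lower. It did so for 59.3% of the 17792 genes with at least 10 fragments in the pair of libraries (34.6% higher and 24.7% lower). In Dspp-/- against WT it excluded 1 for 2 of 5 (*Mbp* higher, *Sox10* lower), beside 58.4% of all such genes (30.2% higher and 28.2% lower). In Dspp+/- against Dspp-/- it also excluded 1 for 2 of 5 (*Sox10* higher, *Pmp22* lower), beside 51.0% (29.0% higher and 22.0% lower). Differences beyond counting error were thus common among all genes of these libraries, and the 5 genes did not share a direction.

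**Figure D2:**
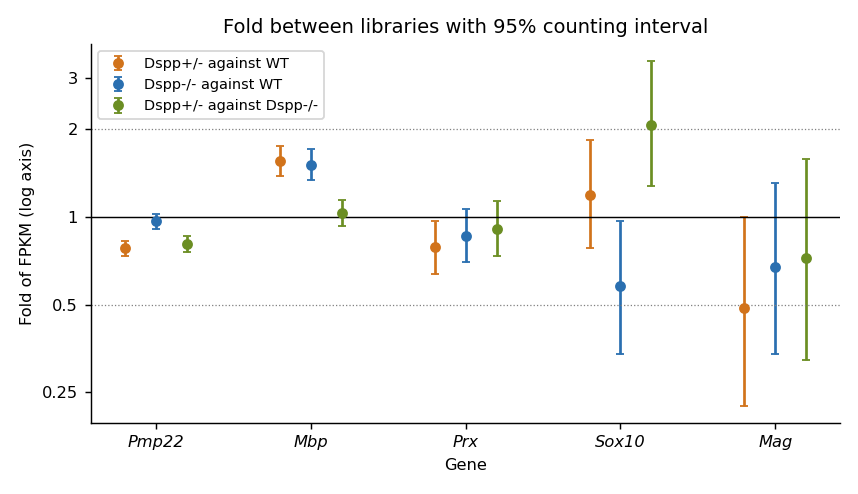
Fold of FPKM on a log axis for the 5 genes in the 3 comparisons (colours), with 95% Clopper-Pearson counting intervals as bars and dotted lines at 0.5 and 2. *Mbp* lies above 1 against WT in both libraries, at 1.56 and 1.51, and the bars of *Sox10* and *Mag* are the widest.

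Other genes of the Schwann cell were read by role from 8 lists. Of 5 compact myelin genes read, 4 were listed, and the 2 that averaged 1 FPKM or more were *Mbp* and *Pmp22* themselves. *Mal*, a lipid-raft protein of myelin, had 0.747, 0.655 and 0.776 FPKM in WT, Dspp+/- and Dspp-/-, and the Dspp+/- fold of 0.878 (0.560 to 1.38) spanned 1.

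Of 10 genes of noncompact myelin, paranode and node, 3 passed the FPKM minimum, and 0 were 2-fold changed. *Cnp*, an enzyme of uncompacted myelin, had 9.64, 11.3 and 9.08 FPKM in WT, Dspp+/- and Dspp-/-. *Gjb1*, the connexin of noncompact myelin, had 2, 0 and 2 fragments, at or under the floor of 3 fragments in every library. *Cldn19*, a claudin of Schwann cell junctions, was also rare at 12, 22 and 14 fragments, as was *Nfasc*, which axons use as well, at 40, 43 and 31 fragments. *Cadm4*, an adhesion protein of the Schwann membrane along the internode, had 1.14, 0.647 and 0.853 FPKM, and its fold in Dspp+/- was 0.566 (0.353 to 0.896).

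The outer membrane list holds the partners of *Prx*, and all 8 of its genes averaged 1 FPKM or more. *Drp2*, which binds periaxin, had 1.33 FPKM in the WT library, against 1.33 in Dspp+/- and 1.29 in Dspp-/-. Its fold came to 1.00 (0.838 to 1.20) for Dspp+/- and 0.969 (0.806 to 1.17) for Dspp-/-, so no difference was detectable at this depth. *Dag1* (dystroglycan) and *Utrn* (utrophin), which muscle also expresses, had folds of 1.04 (1.01 to 1.08) and 0.992 (0.953 to 1.03) in Dspp+/-. *Itgb4*, a laminin receptor of mature Schwann cells and of perineurium, had a fold of 0.863 (0.729 to 1.02). *Itga6*, its partner, which blood-forming and endothelial cells use as well, had folds of 1.60 (1.5 to 1.71) in Dspp+/- and 1.58 (1.48 to 1.69) in Dspp-/-.

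Of 12 transcription factors of the Schwann lineage, 5 passed the FPKM minimum: *Egr2*, *Nab1*, *Nab2*, *Id2* and *Jun*. The median log2 ratio of these 5 was -0.33 in Dspp+/- and -0.17 in Dspp-/-. *Sox10*, *Foxd3* and *Pou3f1* lay under the minimum and did not enter it. Over all 12, with no filter on low values, the medians were -0.00 and -0.05. *Egr2*, the partner of *Sox10* in myelination, had 86, 63 and 97 fragments in WT, Dspp+/- and Dspp-/-. It was lowest in Dspp+/-, with a fold of 0.628 (0.446 to 0.879), and in Dspp-/- the fold was 1.03 (0.760 to 1.39). *Sox10* was lowest in Dspp-/- instead. *Foxd3*, a neural crest factor that immature Schwann cells keep, had 27, 36 and 16 fragments, and its fold in Dspp-/- against WT, 0.539 (0.271 to 1.04), did not exclude 1. *Pou3f1* (Oct-6), which precedes myelination, had 21, 63 and 36 fragments, and its fold in Dspp+/- was 2.57 (1.55 to 4.44). *Sox2* and *Pax3*, factors of immature cells, had at most 2 and 5 fragments in any library.

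Among 12 signals and receptors, 4 passed the FPKM minimum, and all 4 were lower than WT in both libraries, with median log2 ratios of -0.36 and -0.29. Of all 13026 genes tested, 34.7% were lower than WT in both. Over all 12 signals, with no filter on low values, the medians were -0.10 and -0.15. *Erbb2*, a subunit of the neuregulin receptor common to many cell types, had 3.16, 2.06 and 2.23 FPKM in WT, Dspp+/- and Dspp-/-. *Erbb3*, the neuregulin-binding partner in Schwann cells, lay under the FPKM minimum and went the other way, with 63, 150 and 148 fragments. Its folds were 2.04 (1.51 to 2.78) in Dspp+/- and 2.14 (1.58 to 2.92) in Dspp-/-. *Adgrg6*, an adhesion receptor that Schwann cells need to start myelination and that cartilage also uses, had folds of 0.752 (0.671 to 0.843) and 0.805 (0.719 to 0.902). *Lgi4*, a secreted signal of Schwann cells, had folds of 0.643 (0.470 to 0.876) and 0.473 (0.332 to 0.668), and 44.9% of its exon length overlaps *Fxyd3* and counting may have split their fragments.

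Of 16 genes of non-myelinating and general Schwann cells, 10 passed the FPKM minimum and 1 was at least 2-fold lower in Dspp+/-, *Matn2*, a matrix gene also of bone and cartilage, with 23.6, 9.33 and 16.9 FPKM. *S100b*, a calcium-binding protein of Schwann cells that chondrocytes and adipocytes share, had 5.63, 4.77 and 5.72 FPKM, and its fold was 0.847 (0.680 to 1.06) in Dspp+/-. *Cdh19*, a cadherin of Schwann cell precursors and mature Schwann cells, had 62, 120 and 117 fragments, with folds of 1.66 (1.21 to 2.29) and 1.72 (1.25 to 2.37). *Scn7a*, a sodium channel of non-myelinating Schwann cells, had folds of 1.5 (1.28 to 1.77) and 1.62 (1.38 to 1.90). *L1cam*, an adhesion protein of non-myelinating Schwann cells and axons, had folds of 2.30 (1.84 to 2.90) and 1.94 (1.54 to 2.46). *Cryab*, a chaperone abundant in muscle, had the highest level in this list at 401, 794 and 473 FPKM. *Ncam1*, shared with muscle, had a fold of 0.835 (0.782 to 0.893), and *Fabp7*, of immature Schwann cells, 0.391 (0.236 to 0.632) in Dspp+/-.

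Genes of myelin lipid supply did not share a direction. Of 11 genes, 6 passed the FPKM minimum, 0 were 2-fold changed, and the median log2 ratio was -0.03 in Dspp+/- and 0.12 in Dspp-/-. Of all 11, the counting interval in Dspp+/- against WT lay above 1 for 3 and below 1 for 2. The 6 that passed serve cholesterol and ceramide supply in many cell types, among them *Sqle*, an enzyme of cholesterol synthesis, with 1.81, 1.73 and 1.99 FPKM. The enzymes closer to myelin itself were rare: *Ugt8a*, which makes galactosylceramide, had 7, 29 and 12 fragments with a fold of 3.55 (1.52 to 9.6) in Dspp+/-, and *Fa2h*, which hydroxylates its fatty acids, had 4, 14 and 2 fragments. *Aspa*, which releases acetate from N-acetylaspartate, had 48, 86 and 112 fragments, with folds of 1.54 (1.07 to 2.23) in Dspp+/- and 2.12 (1.5 to 3.04) in Dspp-/-. *Fdps* was listed with 11, 10 and 11 fragments, and 26.7% of its exon length overlaps another gene.

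The last list holds 14 genes mutated in demyelinating neuropathies, among them *Pmp22*, *Gjb1*, *Prx* and *Egr2*. Of these, 11 passed the FPKM minimum, and the median log2 ratio was -0.15 in Dspp+/- and -0.01 in Dspp-/-. *Sh3tc2*, an endosomal protein of Schwann cells, had 60, 194 and 161 fragments in WT, Dspp+/- and Dspp-/-, with folds of 2.77 (2.06 to 3.77) and 2.44 (1.80 to 3.34). *Fgd4*, an actin regulator used by many cell types, had 293, 741 and 910 fragments, with folds of 2.17 (1.89 to 2.49) and 2.83 (2.47 to 3.23). *Ndrg1* was lower, with folds of 0.600 (0.572 to 0.629) and 0.572 (0.544 to 0.600). On the log2(FPKM + 1) scale 0 of the 11 reached 2-fold.

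**Figure D3:**
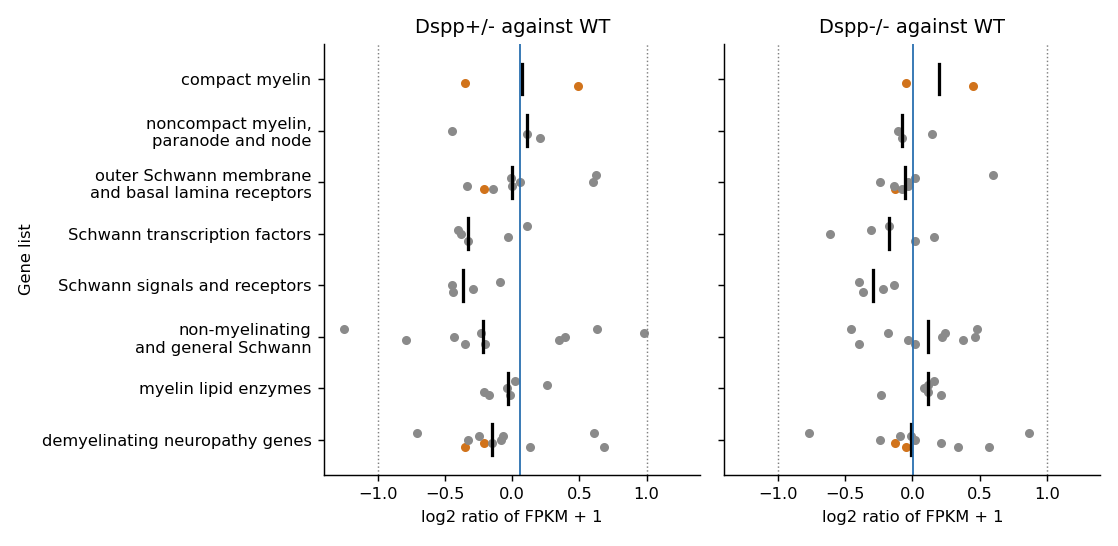
Log2 ratio of FPKM + 1 for genes averaging 1 FPKM or more (points, members in orange) in 8 Schwann cell lists, for each comparison with WT, with list medians as black bars, the median of all genes tested as a blue line and dotted lines at 2-fold. All points lie within the 2-fold lines except *Matn2* in Dspp+/-.

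Markers of other cells were read as well, since the 5 genes can have other sources in this tissue. Oligodendrocyte genes, which would come with central myelin, were near 0: the 4 of 9 that were listed summed to 0.568, 0.538 and 0.494 FPKM in WT, Dspp+/- and Dspp-/-, and *Olig1* was at or under the floor of 3 fragments in every library. *Mog*, *Mobp*, *Olig2*, *Opalin* and *Hapln2* were looked for and are not among the listed genes, so they have no values here. Neuron and axon genes summed to 26.1, 25.2 and 17.7 FPKM, mostly from *Uchl1*, while *Nefl*, *Nefm*, *Gap43* and *Scn10a* were at or under the floor. Other genes of that list differed in direction, with *Stmn2* at 121, 210 and 176 fragments, *Tac1* at 4, 17 and 12, and *Tubb3* at 70, 64 and 41. The 6 perineurium genes summed to 11.4, 10.1 and 8.52 FPKM, mostly from the glucose transporter gene *Slc2a1* at 8.29, 6.31 and 4.61 FPKM. The perineurial claudin gene *Cldn1* went the other way with 67, 152 and 160 fragments, and *Moxd1* had 22, 55 and 25 fragments.

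For *Sox10*, melanocyte and gland genes were read. Melanocyte genes summed to 5.60, 7.60 and 6.79 FPKM in WT, Dspp+/- and Dspp-/-, of which *Mitf* and *Kit*, shared with osteoclasts and mast cells, made up most. Of the pigment cell genes, *Tyrp1* and *Mlana* were at or under the floor, *Pmel* had 25, 21 and 17 fragments, and *Dct* had 6, 25 and 13. Salivary gland genes summed to 3.69, 8.71 and 13.6 FPKM, highest in Dspp-/-, where *Sox10* was lowest. In every library most of the sum was *Amy1*, at 3.51, 8.09 and 7.65 FPKM in WT, Dspp+/- and Dspp-/-. Of the *Amy1* exon length, 32.7% overlaps *Rnpc3* on the same strand. *Krt14* and *Krt5* were at or under the floor, and *Aqp5* had 3, 3 and 4 fragments. *Bpifa2*, a secretory protein of the parotid gland, had 0.0738, 0.211 and 3.71 FPKM, from 3, 10 and 166 fragments. *Smr3a* (0, 4 and 19 fragments), *Prol1* (0, 0 and 13) and *Pip* (0, 2 and 17) were also highest in Dspp-/-. In Dspp-/- against WT, 5 genes of the list had at least 10 fragments in the pair, and the interval lay above 1 for all 5. The part of melanocyte or gland RNA in the *Sox10* values was not tested.

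For *Pmp22*, bone, cartilage and connective tissue genes were read. The 13 osteoblast genes were all lower than WT in Dspp+/-, and their summed FPKM was 0.275 of WT in Dspp+/- and 0.525 in Dspp-/-. The 14 chondrocyte genes summed to 0.275 and 0.444 of WT, and the 10 fibroblast and tendon genes to 0.612 and 0.755. Within the fibroblast and tendon list, 5 genes were higher and 5 lower in Dspp+/- than in Dspp-/-. *Lum*, a matrix proteoglycan, had 512, 224 and 478 FPKM in WT, Dspp+/- and Dspp-/-. *Fmod*, the most abundant gene of that list, had 1030, 621 and 621 FPKM. The sums of the osteoblast, chondrocyte, and fibroblast and tendon lists were lowest in Dspp+/-, as was *Pmp22*. In Dspp-/- *Pmp22* did not differ from WT beyond counting error. Their part in the *Pmp22* values was not tested.

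For *Mbp*, the lists of blood-forming cells were among those higher than WT in both other libraries. Erythroid genes summed to 3.99 and 3.89 times WT in Dspp+/- and Dspp-/-, neutrophil genes to 4.51 and 5.99 times, B cell genes to 2.33 and 2.15 times and cell cycle genes to 3.68 and 3.5 times. The summed macrophage list, at 0.852 and 0.846 of WT, was not higher. Its 9 genes were split, with 5 higher and 4 lower in Dspp+/-, and 3 higher and 6 lower in Dspp-/-. A gene's value sums the short forms of myelin and the golli forms, so their shares cannot be told apart here, and the part of blood-forming cells in the *Mbp* values was not tested. For *Prx*, the 11 endothelial genes summed to 1.09 and 1.03 times WT. Skeletal muscle genes, in tissue where motor nerves end, summed to 1.31 and 1.08 times WT, with *Acta1* highest at 5610, 8160 and 7150 FPKM. Of the 12 muscle genes averaging 1 FPKM or more, 8 were higher and 4 lower in Dspp+/-, and 5 higher and 7 lower in Dspp-/-. Their median log2 ratios were 0.25 and -0.18. Neuromuscular junction genes summed to 1.45 and 0.987 times WT.

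**Figure D4:**
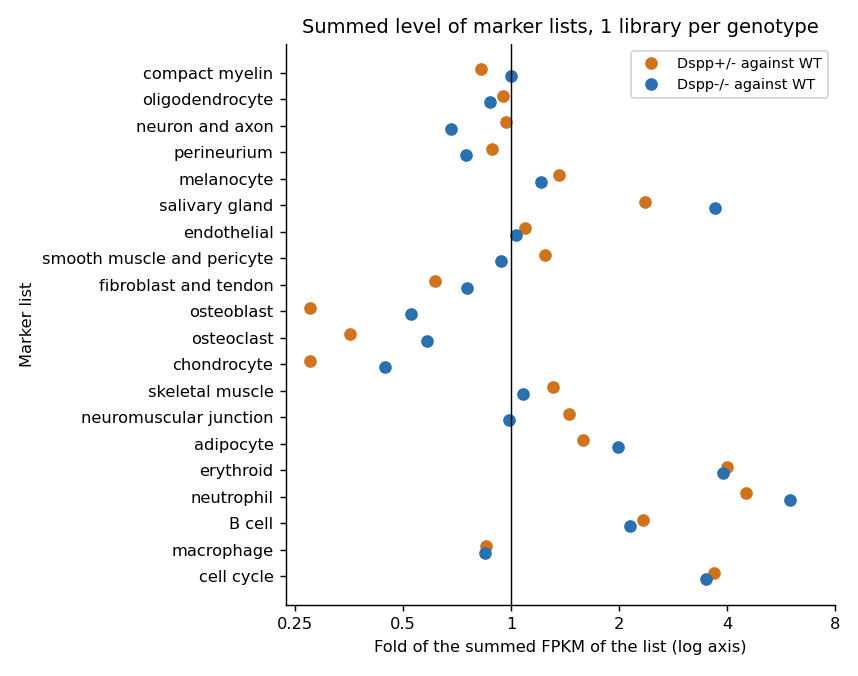
Fold of the summed FPKM of each marker list against WT on a log axis, for Dspp+/- (orange) and Dspp-/- (blue), with 1 library each and no error bars. Compact myelin genes lie at 0.822 and 0.998, between the bone and cartilage lists on the left and the blood-forming lists on the right. Most of that sum is *Pmp22* (45.3 of 48.7 FPKM in WT). *Mbp*, in the same list, went the other way with 2.54, 3.96 and 3.85 FPKM in WT, Dspp+/- and Dspp-/-.

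Genes with the pattern most like that of the members were sought among 13023 others that averaged 1 FPKM or more, by the Euclidean distance of log2(FPKM + 1), centred over the 3 libraries. Nearest to the median of *Mbp*, *Pmp22* and *Prx* were *Ccdc34*, *Lats2*, *Wwtr1*, *Rnf144a* and *Rora*, at distances of 0.0580 to 0.0585. Of the Schwann lists, *S100b* came closest, at rank 117. For single members the nearest genes were *Plekhf2*, *Emb* and 7SK for *Mbp*, *Prkag2*, *Prima1* and 5930430L01Rik for *Pmp22*, and *Fbxl20*, *Adk* and *Sned1* for *Prx*, at distances of 0.0055 to 0.0102. A pattern over 3 libraries holds few degrees of freedom, and near matches among this many genes carry no further meaning here.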

How the data were processed

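Each of the 3 genotypes is represented by 1 RNA library from mandibular condyles (poly(A)-selected, pairs of 150 bases). The labels mention triplicates, whereas the methods describe pooled tissue, and each genotype has 1 value per gene. The authors deposited 1 table whose unit is not named. The deposited values were read as FPKM, since FPKM times merged exon length (GENCODE M21) gave whole fragments after dividing by a constant of each library. This held for 26142 of 26641 matched genes, within 0.02 fragments plus an allowance that grows with the fragment count and exon length. At the highest counts the allowance passes any value. The submitters' processing notes name HISAT2 2.1.0, StringTie 1.3.3b, FastQC 0.11.5, DESeq 1.28.0 and hg38, a human build, while the identifiers are of mouse. Only 578 genes have GRCm38 positions. The roles of these tools, the annotation and the filters are not given in the sources used here.

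Genes averaging 1 FPKM or more were compared as log2 ratios of FPKM + 1. Without replicates no test, including the Kruskal-Wallis test of the study, could be run. Folds carry 95% Clopper-Pearson intervals from the recovered fragments, and levels exact Poisson intervals. The floor was 3 fragments. The scripts were tested on simulated data. Members and gene lists were chosen with earlier results of these data known, and the rule for named genes took the members in full, any gene of the Schwann lists, the 3 most abundant and the absent genes of other lists, and the 5 genes of nearest pattern (3 for each member). Defining markers of other cells at or under the floor, *Pmel*, *Dct*, *Tac1*, *Moxd1*, *Aqp5*, *Prol1*, *Pip* and *Xist* were named after their values were seen. Other lists (smooth muscle, osteoclast, adipocyte) are in the plot of marker lists. Alternatives were 2 pseudocounts, 4 scalings, 2 filters and 2 thresholds. Some list genes, and ratios of the members to another gene, are not reported here. The fold with no pseudocount was added after seeing the data. Software was scipy 1.17.1, matplotlib 3.10.9, pandas 2.3.3 and numpy 2.4.6 under Python 3.11.15.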

Additional observations from a re-analysis of the deposited data

How the results depend on the processing

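No paired analysis was possible because each genotype has 1 library, and no library could be left out of a comparison for the same reason. The count of members at least 2-fold changed was 0 in all 3 comparisons under the pseudocounts, scalings, filters and the 4-fold threshold, and with a threshold of 1.5-fold.

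On the log2 scale *Mbp* moved to 0.25 in Dspp+/- and 0.23 in Dspp-/- against WT with a pseudocount of 5. Scaling without hemoglobin, immunoglobulin and muscle genes, which put the median of all genes at -0.104 and -0.131, gave *Pmp22* -0.55 and -0.22 and the outer membrane list -0.17 and -0.19, and the neuropathy list -0.32 in Dspp+/-. The compact myelin median in Dspp+/- was -0.35 with a mean of at least 5 FPKM, where only *Pmp22* of the list enters. With no pseudocount and no filter, a choice made after seeing the data, *Mag* in Dspp+/- against WT (0.485) and *Sox10* in Dspp+/- against Dspp-/- (2.07) passed 2-fold. *Mbp* in both comparisons with WT and *Sox10* in Dspp-/- against WT then passed 1.5-fold. A change of pseudocount cannot turn the sign of a ratio, so only the scalings could change the direction of a member. Under the scalings the directions against WT held, except that *Pmp22* in Dspp-/- turned to 0.03 when scaled without mitochondrial genes. *Mbp* in Dspp+/- against Dspp-/- lay between -0.02 and 0.04 and changed sign with the scaling.

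Counts of all genes changed at least 2-fold depended on the settings. In Dspp+/- against WT (1009 genes) a pseudocount of 0.1 gave 1576, a pseudocount of 5 gave 341, a mean of at least 5 FPKM 553, a 1.5-fold threshold 2667 and a 4-fold threshold 148. In Dspp-/- against WT (706) the same settings gave 1199, 181, 338, 2222 and 109. In Dspp+/- against Dspp-/- (215) they gave 437, 72, 109, 1004 and 28, and no filter gave 342. Of the genes called in Dspp+/- against WT, 63% were higher, and 44.8% with the hemoglobin, immunoglobulin and muscle genes left out of the scaling (50.8% with a mean of at least 5 FPKM). In Dspp-/- against WT the share was 74.6%, and 56.4% with that scaling. The cause of these shifts was not tested. *Sox10* and *Mag*, with at most 57 and 23 fragments, are limited by depth.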
